A study of Mus musculus with 9 samples.

Results

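The genes described here make prostaglandins and leukotrienes from arachidonic acid. The list was drawn up with earlier results of these data known, and the genes were taken by gene symbol. They comprise *Ptgs1*, *Ptgs2*, *Ptges*, *Ptgds*, *Ptgis*, *Hpgds*, *Alox5*, *Alox5ap*, *Ltc4s* and *Alox15*, which are 10 of the 18349 genes listed in each library, and all 10 passed the filter on low counts. Their RNA was measured by RNA-Seq of mouse iris in 9 libraries, with 3 libraries to a group and the irises of 3 mice of identical genotype pooled for each library. Sham *VEGFR3* fl/fl mice received PBS on the cornea. Injured *VEGFR3* fl/fl mice had corneal alkali injury at 6 weeks of age, in which sodium hydroxide (1 M, 0.5 μL) was held against the cornea for 60 seconds. Injured *VEGFR3* iLECko mice had the same injury and carried, beside floxed *VEGFR3*, a tamoxifen-inducible Cre driven by the *Prox1* promoter. Tamoxifen was given at 80 mg/kg on days 13 to 17 after injury, and irises were collected at 10 weeks of age. By the study's methods the fl/fl littermate controls received the same tamoxifen. The fl/fl controls carried floxed alleles without Cre, so that every group shared the floxed *VEGFR3* and none was a plain wild type. *Prox1* is expressed in lymphatic endothelium and in other cells such as lens, and RNA of a whole iris does not separate these cells. Replicates 2 and 3 of the iLECko group bear a genotype tag with another VEGFR number, and their titles were followed.

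Cyclooxygenases, encoded by *Ptgs1* and *Ptgs2*, turn arachidonic acid into prostaglandin H, which terminal synthases convert into prostaglandins E, D and F, prostacyclin or thromboxane. The lipoxygenase encoded by *Alox5*, helped by the membrane protein FLAP, makes leukotriene A, the precursor of leukotriene B and of the cysteinyl leukotrienes. In the anterior eye prostaglandins are known for constricting the pupil, for opening the blood-aqueous barrier after trauma and for changing intraocular pressure, while leukotrienes are made mainly by leukocytes.

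Promoters are shown for the cyclooxygenase gene with the largest rise after injury (*Ptgs2*), for the gene with the highest level of all in the Sham iris (*Ptgds*) and for the gene called between the injured groups (*Hpgds*). They were taken from RefSeq on GRCm38.p6, the build called mm10, and run 5′ to 3′ on the gene's own strand from 250 bases before the start site to the first 50 transcribed bases. The windows are chr1:150099781-150100080 on the plus strand for *Ptgs2*, chr2:25469700-25469999 on the minus strand for *Ptgds* and chr6:65144681-65144980 on the minus strand for *Hpgds*. Capitals mark matches to short motifs searched on both strands.
Ptgs2: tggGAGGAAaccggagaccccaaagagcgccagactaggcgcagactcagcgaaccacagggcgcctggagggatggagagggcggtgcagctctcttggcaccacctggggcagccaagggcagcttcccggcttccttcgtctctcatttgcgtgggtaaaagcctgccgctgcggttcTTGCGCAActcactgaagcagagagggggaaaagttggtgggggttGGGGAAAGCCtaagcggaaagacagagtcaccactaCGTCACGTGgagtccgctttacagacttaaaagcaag
Ptgds: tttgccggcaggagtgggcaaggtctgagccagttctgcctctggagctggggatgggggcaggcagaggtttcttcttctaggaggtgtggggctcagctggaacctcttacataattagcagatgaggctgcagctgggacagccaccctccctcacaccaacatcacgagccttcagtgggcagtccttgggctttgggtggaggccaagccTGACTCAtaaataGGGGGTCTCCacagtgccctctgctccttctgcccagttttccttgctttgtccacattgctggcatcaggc
Hpgds: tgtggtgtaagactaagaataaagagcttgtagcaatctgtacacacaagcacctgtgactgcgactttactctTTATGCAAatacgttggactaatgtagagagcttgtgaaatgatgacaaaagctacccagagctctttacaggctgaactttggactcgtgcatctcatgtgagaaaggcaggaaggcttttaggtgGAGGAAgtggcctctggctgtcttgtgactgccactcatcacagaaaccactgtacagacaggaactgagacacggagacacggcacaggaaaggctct
The motifs were TTGCNNAA, bound by C/EBP factors and held by 10.8% of the 32851 promoters of the same length in the RefSeq table, CGTCA, part of the cAMP response element (20.8%), CACGTG, an E-box (7.15%), a loose kappa-B site of GGG, any 5 bases and CC (50.8%), TGANTCA, an AP-1 site (7.81%), GAGGAA, the core bound by PU.1 (28.3%), and TATAAA (13.6%). The *Ptgs2* window held GAGGAA at bases -247 to -242 from the start site, TTGCGCAA at -69 to -62 and a kappa-B match at -23 to -14. It also held CGTCA at 14 to 18, which shares its last bases with CACGTG at 17 to 22. The *Ptgds* window held TGACTCA at -35 to -29 and a kappa-B match at -22 to -13. The *Hpgds* window held TTATGCAA, the C/EBP motif read on the other strand, at -176 to -169 and GAGGAA at -49 to -44. Promoters were found for 7 of the 10 genes and not for *Ptgis*, *Alox5ap* and *Alox15*. GAGGAA was present in 6 of the 7 (all but *Ptgds*), the kappa-B letters in 5 and the C/EBP motif in 2. These matches are letters in a window and were not tested as binding sites.

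Libraries held 16617187 to 18306359 counts, and values are given as counts or as CPM, counts scaled to the same library total with edgeR's TMM normalization. Log2 fold changes, their standard errors (SE) and adjusted p-values come from the quasi-likelihood test of edgeR, adjusted over 15010 genes by the Benjamini-Hochberg method. DEGs were genes with adjusted p below 0.05 whose level changed over 1.5-fold. Iris markers were present, with 7 pigment cell genes at a summed 27656 to 29613 CPM in Sham libraries and 7 smooth muscle genes at 9381 to 11743 CPM. RNA of neighbouring tissue was present too and varied between libraries. Retinal photoreceptor genes summed to 88.7 to 824 CPM in Sham, 13.7 to 506 in injured fl/fl and 22.6 to 529 in iLECko libraries. Corneal keratins summed to 2.48 to 42.2 CPM in Sham, and lens genes to 12.4 to 71.0 CPM in injured fl/fl libraries. Their part in the results below was not tested. *Flt4*, the mouse gene of VEGFR3, was at 14.6 ± 1.14 CPM in Sham, 20.1 ± 3.11 in injured fl/fl and 25.4 ± 3.88 in injured iLECko libraries (SD, n = 3 each), so that the deletion could not be seen in whole-iris RNA. Libraries also differed in sex-linked RNA. The mean of 4 Y-linked genes was 3.53 to 5.16 on the log2 CPM scale in the Sham libraries and in injured fl/fl replicates 1 and 2 and -2.05 or less in injured fl/fl replicate 3 and all iLECko libraries. Sex-linked RNA and genotype can therefore be told apart only through injured fl/fl replicate 3, which is given beside each result that turns on it. Libraries are separate pools of animals, and p-values measure the spread between these pools.

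After injury, both cyclooxygenase genes, the prostaglandin D synthase gene of blood cells and all 3 genes of leukotriene C synthesis rose by 2.69-fold to 32.6-fold, while the most abundant gene of the Sham iris, *Ptgds*, fell 3.96-fold. In injured over Sham *VEGFR3* fl/fl irises, 6 of the 10 genes were upregulated DEGs (*Ptgs1*, *Ptgs2*, *Hpgds*, *Alox5*, *Alox5ap* and *Ltc4s*) and 1 was a downregulated DEG (*Ptgds*). Of all genes tested, 22.1% were upregulated and 17.5% downregulated in this comparison (39.7% in either direction), which is 3323 and 2630 genes, and with libraries scaled by their totals alone 2783 and 3523. That scaling shifted the median of all genes by -0.17 on the log2 scale and left the calls of the 10 genes as they were in number. *Ptges*, *Ptgis* and *Alox15* did not pass the test. The median change of the 10 genes was 1.65 on the log2 scale, beside 0.010 for all genes tested. The groups did not overlap for the same 7 genes, 6 higher and 1 lower, whereas 33.9% of all genes tested lay wholly higher and 32.4% wholly lower after injury. In bulk RNA, fewer cells of a type and less RNA per cell cannot be told apart, and this holds for every difference below. The plot of CPM by library shows all 10 genes.

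**Figure D1:**
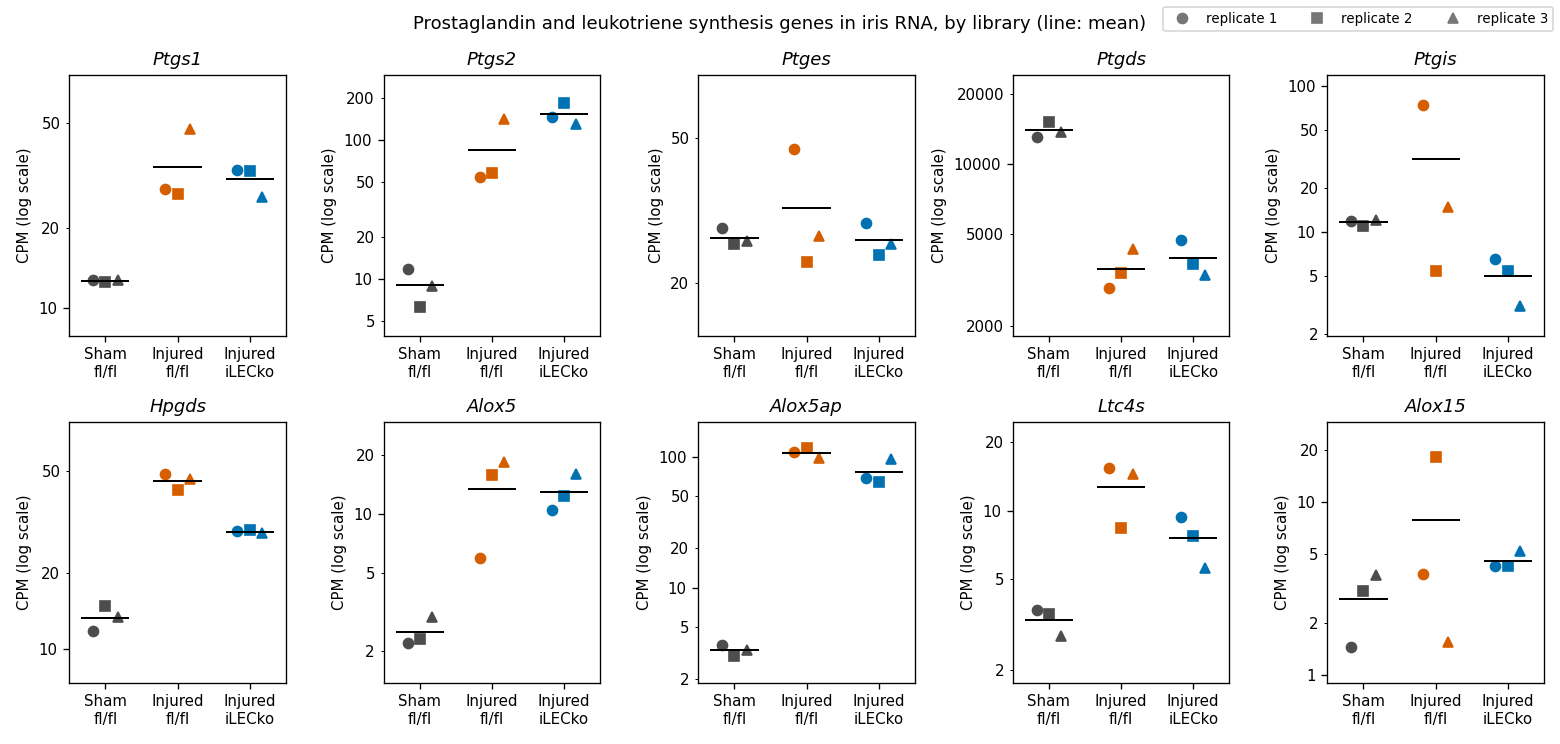
Each panel plots 1 gene, with CPM per library on a log axis, the 3 groups along the horizontal axis, a symbol for each replicate and a line at the group mean. *Ptgds* is the gene whose Sham libraries all lie above both injured groups, *Hpgds* falls into 3 separate tiers, and *Ptgis* and *Alox15* spread widely in the injured fl/fl group because of 1 library each (replicate 1 at 74.3 CPM and replicate 2 at 18.3 CPM).

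*Ptgs1* (NCBI Gene ID 19224, chr2:36230426-36252272, plus strand) encodes the cyclooxygenase that most tissues express constantly. Replicates 1 to 3 held 230, 223 and 226 counts of it in the Sham group, 463, 460 and 826 in injured fl/fl libraries and 570, 579 and 455 in the injured iLECko libraries. In CPM these were 12.7, 12.6 and 12.7, then 28.1, 26.9 and 47.4, then 33.3, 32.8 and 26.2. The Sham libraries were nearly equal and lay below all 6 injured libraries, and the highest value was that of injured fl/fl replicate 3. After injury *Ptgs1* rose 2.69-fold, with a log2 fold change of 1.43 (SE 0.21, adjusted p = 0.000336).

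*Ptgs2* (NCBI Gene ID 19225, chr1:150100031-150108227, plus strand) encodes the inducible cyclooxygenase. It had 213, 110 and 157 counts in Sham, 887, 986 and 2480 in injured fl/fl and 2500, 3267 and 2274 in injured iLECko libraries. These were 11.8, 6.21 and 8.84 CPM, then 53.8, 57.7 and 142 CPM, then 146, 185 and 131 CPM. All injured libraries lay above all Sham libraries, but the injured fl/fl group was split, with replicate 3 near the iLECko libraries and replicates 1 and 2 well below them. The rise after injury was 9.45-fold, a log2 fold change of 3.24 (SE 0.41, adjusted p = 0.000133), and it was 2.64 without injured fl/fl replicate 3. Injured iLECko over Sham irises gave 4.10 (SE 0.42, adjusted p = 4.90e-05), a 17.2-fold rise, which ranged from 2.89 to 4.35 on the log2 scale over the alternatives.

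Among the terminal prostaglandin synthases the 4 genes went different ways. *Ptges* (NCBI Gene ID 64292, chr2:30889471-30929863, minus strand) encodes the microsomal prostaglandin E synthase that often accompanies *Ptgs2*. Its values were 28.2, 25.5 and 26.0 CPM in Sham, 46.8, 22.9 and 26.9 in injured fl/fl and 29.3, 23.9 and 25.6 in injured iLECko irises. Apart from injured fl/fl replicate 1 all libraries lay between 22.9 and 29.3 CPM, and the groups overlapped in every comparison. The log2 fold change after injury was 0.27 (SE 0.23, adjusted p = 0.329) and was -0.10 without injured fl/fl replicate 1. Thus *Ptgs2* passed the test after injury and *Ptges* did not, and the difference between their changes was not tested.

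*Ptgds* (NCBI Gene ID 19215, chr2:25466709-25470046, minus strand) encodes lipocalin-type prostaglandin D synthase, a secreted protein of brain and eye fluids that also carries small lipophilic molecules. It had 236460, 268312 and 243728 counts in Sham, 47751, 57802 and 74994 in injured fl/fl and 80278, 65575 and 57626 in injured iLECko libraries. In the Sham iris it was the gene with the most counts in each library and took 1.49% ± 0.0898 (SD, n = 3) of all counts. In the injured fl/fl libraries its share was 0.336% ± 0.078 and its rank 15 to 22, and in the iLECko libraries 0.386% ± 0.065 and 17 to 19 (SD, n = 3 each). Normalized values were 13097, 15156 and 13725 CPM in Sham, 2898, 3384 and 4306 in injured fl/fl and 4690, 3714 and 3317 in iLECko irises, with Sham apart from both injured groups and the injured groups overlapping. *Ptgds* fell by 1.99 on the log2 scale after injury (SE 0.18, adjusted p = 1.92e-05), or 3.96-fold, and by 1.84 in iLECko over Sham irises (SE 0.18, adjusted p = 3.97e-05).

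*Hpgds* (NCBI Gene ID 54486, chr6:65117293-65144908, minus strand) encodes the other prostaglandin D synthase, a glutathione-dependent enzyme known from mast cells, some macrophages and T cells. It had 214, 261 and 237 counts in Sham, 806, 718 and 813 in injured fl/fl and 497, 517 and 498 in injured iLECko libraries. These were 11.9, 14.7 and 13.3 CPM, then 48.9, 42.0 and 46.7 CPM, then 29.0, 29.3 and 28.7 CPM. The groups formed 3 tiers without overlap, with the injured iLECko libraries between Sham and injured fl/fl. The log2 fold change after injury was 1.78 (SE 0.097, adjusted p = 8.04e-07), a 3.44-fold rise, and in iLECko over Sham irises it was 1.12 (SE 0.096, adjusted p = 1.61e-05).

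*Ptgis* (NCBI Gene ID 19223, chr2:167191805-167240604, minus strand) encodes prostacyclin synthase, an enzyme of vascular endothelium, smooth muscle and fibroblasts. It had 215, 194 and 215 counts in Sham, 1225, 92 and 257 in injured fl/fl and 112, 95 and 54 in injured iLECko libraries. The Sham libraries were tight at 11.9, 10.96 and 12.1 CPM, the injured fl/fl libraries spread over 74.3, 5.39 and 14.8 CPM, and the iLECko libraries were all below Sham at 6.54, 5.38 and 3.11 CPM. The log2 fold change after injury was 1.43 (SE 0.75, adjusted p = 0.130), which turned to -0.21 without injured fl/fl replicate 1 and rose to 1.93 (adjusted p = 0.0157) without replicate 2. In iLECko over Sham irises it was -1.22 (SE 0.80, adjusted p = 0.225), and it passed the test where injured fl/fl replicate 1 was left out of the fit (adjusted p = 0.0187) or where only these 6 libraries were fitted (adjusted p = 0.00260).

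The genes of leukotriene synthesis were low in the Sham iris, and 3 of them rose in both injured groups. *Alox5* (NCBI Gene ID 11689, chr6:116410077-116461178, minus strand), the arachidonate lipoxygenase that starts leukotriene synthesis, had 40, 41 and 53 counts in Sham, 99, 273 and 324 in injured fl/fl and 181, 218 and 278 in iLECko libraries. Its values were 2.22, 2.32 and 2.98 CPM, then 6.01, 16.0 and 18.6 CPM, then 10.6, 12.3 and 16.0 CPM. Injured fl/fl replicate 1 was the lowest injured library, though above every Sham library. *Alox5* rose 5.39-fold after injury (log2 fold change 2.43, SE 0.39, adjusted p = 0.000585) and 5.17-fold in iLECko over Sham irises (2.37, SE 0.39, adjusted p = 0.000831). In a fit with Y-linked RNA as a covariate the latter was 1.73 and no longer passed the test (adjusted p = 0.0542).

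*Alox5ap* (NCBI Gene ID 11690, chr5:149264767-149288153, plus strand) encodes FLAP, the nuclear membrane protein that hands arachidonic acid to the *Alox5* enzyme, and it changed most of the 10 genes. It had 65, 53 and 59 counts in Sham, 1789, 1996 and 1723 in injured fl/fl and 1179, 1143 and 1691 in injured iLECko libraries. In CPM it went from 3.60, 2.99 and 3.32 in Sham to 109, 117 and 98.9 in injured fl/fl and 68.9, 64.7 and 97.3 in injured iLECko irises. Injured and Sham libraries were far apart, and each iLECko library lay below each injured fl/fl library, replicate 3 by a small margin. The rise after injury was 32.6-fold, a log2 fold change of 5.03 (SE 0.19, adjusted p = 9.81e-08), and in iLECko over Sham irises 4.54 (SE 0.18, adjusted p = 2.32e-07).

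*Ltc4s* (NCBI Gene ID 17001, chr11:50236461-50238616, minus strand) encodes leukotriene C synthase, which joins leukotriene A to glutathione. It had 66, 62 and 50 counts in Sham, 253, 143 and 252 in injured fl/fl and 161, 137 and 97 in iLECko libraries, or 3.66, 3.50 and 2.82 CPM, then 15.4, 8.37 and 14.5 CPM, then 9.41, 7.76 and 5.58 CPM. Every injured library was above every Sham library, and the injured groups overlapped through injured fl/fl replicate 2. *Ltc4s* rose 3.82-fold after injury (log2 fold change 1.93, SE 0.28, adjusted p = 0.000283) and 2.28-fold in iLECko over Sham irises (1.19, SE 0.28, adjusted p = 0.00545), and the latter was 0.92 and did not pass the test with the Y-linked covariate (adjusted p = 0.155).

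*Alox15* (NCBI Gene ID 11687, chr11:70344152-70352031, minus strand), a lipoxygenase of macrophages and eosinophils that starts the synthesis of lipoxins and related mediators, was low throughout. It had 26, 54 and 67 counts in Sham, 63, 313 and 27 in injured fl/fl and 73, 75 and 90 in iLECko libraries, or 1.44, 3.05 and 3.77 CPM, then 3.82, 18.3 and 1.55 CPM, then 4.26, 4.25 and 5.18 CPM. A single library, injured fl/fl replicate 2, stood above the rest. The log2 fold change after injury was 1.52 (SE 0.76, adjusted p = 0.113). It was -0.039 without that library, and 2.01 (adjusted p = 0.0198) without injured fl/fl replicate 3, the lowest of its group.

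Antisense noncoding genes overlap exons of *Ptgs1*, *Ptgis*, *Alox5ap* and *Ltc4s* in the annotation and are not listed in the count files. Whether counting used strand is not given in the sources used here, so that reads of these 4 genes and of their antisense partners cannot be told apart.

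Between the injured groups 1 of the 10 genes, *Hpgds*, was called, and it was lower in *VEGFR3* iLECko irises. *Hpgds* had a log2 fold change of -0.66 (SE 0.093, adjusted p = 0.0263), or 1.58-fold lower, and all 3 iLECko libraries lay below all 3 injured fl/fl libraries. No gene was called higher, and of all genes tested 0.466% were called lower and 0.573% higher (1.04% in either direction). *Hpgds* and *Alox5ap* were the genes without overlap between the groups, both lower, against 14.3% of all genes tested lying wholly lower and 12.4% wholly higher. An unadjusted p under 0.05 was reached by 5 of the 10 genes (*Ptgs2*, *Ptgis*, *Hpgds*, *Alox5ap* and *Ltc4s*) and by 24.5% of all genes tested. The median change of the 10 genes was -0.39 on the log2 scale, beside -0.0099 for all genes tested.

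The *Hpgds* log2 fold change stayed between -0.60 and -0.72 in all 17 alternatives, but its adjusted p was above 0.05 in 7 of them. These were the fit of only the 6 injured libraries (adjusted p = 0.0933), the covariate for Y-linked genes (adjusted p = 0.191), the replicate block (adjusted p = 0.0675) and the fits without Sham replicate 3 (adjusted p = 0.0588) or iLECko replicate 1 (adjusted p = 0.0597), 2 (adjusted p = 0.108) or 3 (adjusted p = 0.0532). *Alox5ap* had a log2 fold change of -0.49 (SE 0.15, adjusted p = 0.10), which was -0.69 (adjusted p = 0.0431) without iLECko replicate 3. *Ltc4s* had -0.75 (SE 0.26, adjusted p = 0.141).

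*Ptgs2* had a log2 fold change of 0.86 (SE 0.36, adjusted p = 0.188) in iLECko over injured fl/fl irises. Without injured fl/fl replicate 3 it was 1.47 (adjusted p = 0.0309), and it was 0.13 in a fit that took Y-linked RNA as a covariate (adjusted p = 0.923). The 4 injured libraries low in Y-linked RNA held 131 to 185 CPM of *Ptgs2*, and the 2 that were high held 53.8 and 57.7 CPM, as the plot of *Ptgs2* against Y-linked level shows. Among the 6 injured libraries genotype and Y-linked RNA part ways in fl/fl replicate 3 alone, and their shares in the *Ptgs2* difference cannot be told apart. In the Sham libraries, all high in Y-linked RNA, *Ptgs2* was between 6.21 and 11.8 CPM.

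The remaining genes were not called between the injured groups by edgeR. *Ptgis* had the largest difference, a log2 fold change of -2.65 (SE 0.81, adjusted p = 0.104), which shrank to -1.0 (adjusted p = 0.244) without injured fl/fl replicate 1 and passed the test at -3.15 (adjusted p = 0.0400) without replicate 2. With DESeq2 and all libraries, *Ptgis* was called lower (adjusted p = 0.0281). *Ptgs1* differed by -0.15 (SE 0.20, adjusted p = 0.670), *Ptges* by -0.29 (SE 0.23, adjusted p = 0.446), *Ptgds* by 0.15 (SE 0.18, adjusted p = 0.633) and *Alox5* by -0.062 (SE 0.36, adjusted p = 0.933) on the log2 scale. *Alox15* differed by -0.79 (SE 0.74, adjusted p = 0.529). The standard errors of *Alox5* and *Alox15* leave room for changes in either direction.

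The comparison of injured iLECko with Sham irises shares its Sham libraries with the comparison above, so that its values stand beside the earlier ones and are not independent of them. All Sham libraries were high and all iLECko libraries low in Y-linked RNA. Injury, genotype and Y-linked RNA thus changed together in this comparison. In it 6 genes were upregulated (those of the fl/fl comparison) and *Ptgds* was downregulated, against 19.7% and 15% of all genes tested (34.8% in either direction). Groups did not overlap for 9 of the 10 genes, 7 higher and 2 lower, the exception being *Ptges*, and 33.3% of all genes tested lay wholly higher and 33.2% wholly lower. *Ptgs1* had a log2 fold change of 1.28 (SE 0.21, adjusted p = 0.000809), against 1.43 in the injured fl/fl group. *Ptges* had -0.020 (adjusted p = 0.949) and *Alox15* 0.73 (adjusted p = 0.446), which became 3.39 (adjusted p = 0.0269) with the Y-linked covariate. With that covariate 5 genes were called higher, *Alox5* and *Ltc4s* being lost and *Alox15* gained. The plot of fold changes sets the 3 comparisons beside each other.

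**Figure D2:**
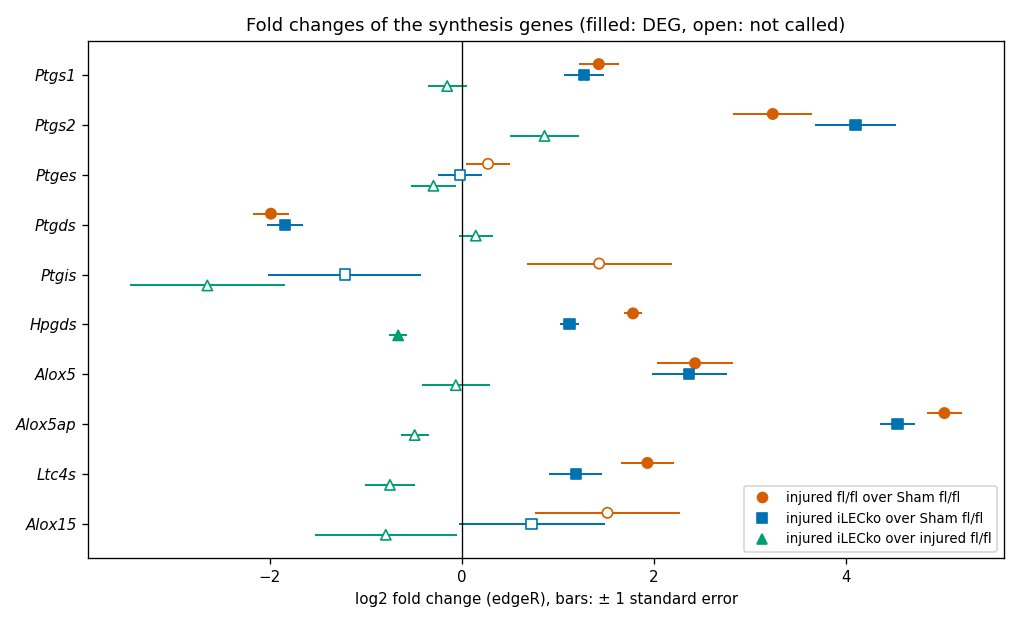
Log2 fold changes from edgeR (horizontal axis) with bars of 1 standard error for the 10 genes, in injured fl/fl over Sham (circles), injured iLECko over Sham (squares) and injured iLECko over injured fl/fl (triangles), with DEGs filled. *Alox5ap* lies farthest right at 5.03 and 4.54, *Ptgds* lies left at -1.99 and -1.84, and *Hpgds* is the only filled triangle, at -0.66.

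Ratios of genes that act at the same step were taken within each library, per base of the longest annotated transcript, since they do not depend on the scaling of a library. The ratio of *Ptgs2* to *Ptgs1*, inducible to constant cyclooxygenase, was 0.596, 0.318 and 0.447 in Sham, 1.23, 1.38 and 1.93 in injured fl/fl and 2.82, 3.63 and 3.22 in injured iLECko libraries. The groups formed 3 steps without overlap, with geometric means of 0.439, 1.49 and 3.21. Injured fl/fl replicate 3, whose *Ptgs2* was as high as in the iLECko group, had a *Ptgs1* that was higher too, and its ratio of 1.93 stayed below the iLECko libraries. The ratio was 3.39-fold higher in injured fl/fl than in Sham and 2.16-fold higher in iLECko than in injured fl/fl irises (two-sided exact permutation test, p = 0.1 each, the smallest p that 3 against 3 libraries allow).

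The ratio of the prostaglandin D synthases, *Ptgds* to *Hpgds*, was 3240, 3014 and 3015 in Sham, 174, 236 and 270 in injured fl/fl and 474, 372 and 339 in iLECko libraries. It was 13.8-fold lower after injury and 1.75-fold higher in iLECko than in injured fl/fl irises, again without overlap (exact permutation test, p = 0.1 each). Even at its lowest, in injured fl/fl replicate 1, *Ptgds* RNA was 174 times *Hpgds* RNA on this scale. The ratio of *Alox5ap* to *Alox5* was 4.65, 3.70 and 3.18 in Sham, 51.7, 20.9 and 15.2 in injured fl/fl and 18.6, 15.0 and 17.4 in iLECko libraries, so that the injured groups overlapped and both lay above Sham. The ratio of *Ptges* to *Ptgis* overlapped between Sham and injured fl/fl irises (exact permutation test, p = 0.7). It was 3.22-fold higher in iLECko than in injured fl/fl irises, at 2.58, 2.57 and 4.75 against 0.364, 2.46 and 1.05 (exact permutation test, p = 0.1). Over the 12 ratio tests the smallest adjusted p was 0.12. Ratios of *Ptgs2* to *Ptgs1* and of the other pairs scale with the transcript length chosen, but their changes between groups do not.

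**Figure D3:**
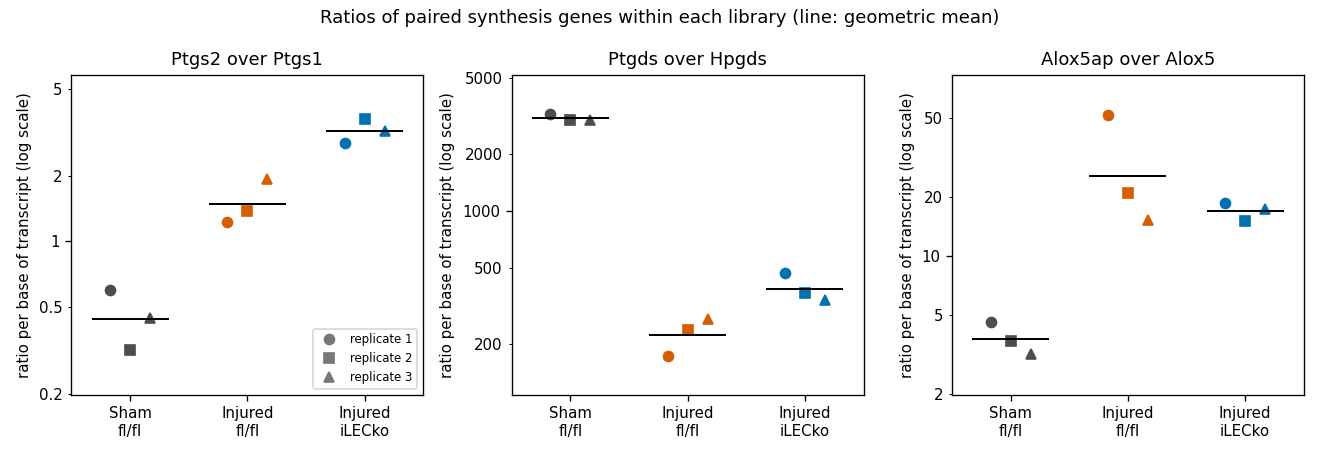
Ratios of *Ptgs2* to *Ptgs1*, *Ptgds* to *Hpgds* and *Alox5ap* to *Alox5* per base of transcript, on log axes, for each library of the 3 groups, with symbols for replicates and lines at geometric means. The first ratio climbs from 0.439 through 1.49 to 3.21, the second drops from 3088 to 223 and 391, and the third rises from 3.79 to 25.4 and 16.9 with overlap between the injured groups.

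To compare levels between genes, counts were divided by the length of the longest transcript and scaled to 1 common total over the 17638 genes with a known length (approximate TPM). *Ptgds* was the highest of all genes in Sham irises at 30369 ± 1059, 1441 times the next of the 10, *Ptges* at 21.1 ± 1.94. Below it came *Ptgis* (16.0 ± 1.40), *Ltc4s* (13.4 ± 1.93), *Ptgs1* (12.8 ± 0.585), *Hpgds* (9.85 ± 0.684), *Alox5ap* (7.64 ± 1.0), *Ptgs2* (5.85 ± 2.04), *Alox15* (3.28 ± 1.39) and *Alox5* (2.02 ± 0.348), all SD with n = 3. Neighbours in this order differed by less than the sum of their SDs from *Ptgis* to *Ptgs1* and from *Alox5ap* down to *Alox5*. In injured fl/fl irises the order was *Ptgds* (6292 ± 1663), *Alox5ap* (203 ± 22.4), *Ptgs2* (45.4 ± 29.0), *Ltc4s* (41.4 ± 11.3), *Ptgis* (32.9 ± 37.1), *Ptgs1* (28.2 ± 10.9), *Hpgds* (27.6 ± 1.71), *Ptges* (20.3 ± 6.32), *Alox5* (9.10 ± 4.87) and *Alox15* (7.85 ± 9.33). There *Ptgds* stood apart from *Alox5ap*, and *Alox5ap* from *Ptgs2*, whereas the other neighbours differed by less than the sum of their SDs. In iLECko irises *Ptgds* was at 7645 ± 1204, *Alox5ap* at 160 ± 36.7, *Ptgs2* at 90.3 ± 18.8, *Ptgs1* at 27.9 ± 3.67, *Ltc4s* at 27.5 ± 6.55, *Hpgds* at 19.4 ± 0.738, *Ptges* at 18.7 ± 1.36, *Alox5* at 9.46 ± 2.10, *Ptgis* at 6.18 ± 2.08 and *Alox15* at 4.93 ± 0.593. Neighbours within the sum of their SDs there were *Ptgs1* and *Ltc4s*, *Hpgds* and *Ptges*, *Alox5* and *Ptgis*, and *Ptgis* and *Alox15*. Among all 17638 genes *Ptgs2* moved from rank 10964 in Sham to 3579 in injured fl/fl and 1923 in iLECko irises, *Alox5ap* from 10377 to 727 and 982, and *Ptgds* from 1 to 10 and 8. With the median transcript length instead, *Ptgds* remained the highest of the 10 in each group, but its lead over the next gene in Sham was 394 times and the order below it changed. In injured fl/fl irises *Ptges* went from rank 8 (20.3) to 3 (52.8), *Ltc4s* from 4 to 6 and *Ptgs2* to 5, below *Ptgs1* (36.9 against 51.1), and in Sham *Ptgs1* went from rank 5 to 3. With the longest protein-coding transcript, chosen after the data were seen, that lead was 2122 times.

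The rest of the pathway was described from a list of 57 genes, of which 55 were listed and 44 tested. After injury 19 of the 44 were upregulated, 10 downregulated and 15 not called, with a median log2 fold change of 0.30. Of all genes tested 22.1% were upregulated and 17.5% downregulated, and the counts by role below stand beside these shares. The number of genes given for a role is the number tested. Every receptor called was higher. Of 7 receptors of leukotrienes and related lipids in the list, 6 were listed and 4 passed the filter on low counts, and all 4 were upregulated. *Fpr2*, a receptor of formyl peptides and lipoxin, went from 0.113 ± 0.149 to 4.20 ± 1.91 CPM (log2 fold change 5.14, adjusted p = 0.000779). It had 0, 5 and 1 counts in Sham and passed the filter through the injured libraries, so that only a rise could be seen. *Ltb4r1*, the high-affinity leukotriene B receptor, went from 0.655 ± 0.121 to 6.71 ± 2.32 CPM (3.34, adjusted p = 2.25e-05). Of 7 prostanoid receptors 4 were upregulated and none downregulated, with *Ptger2*, a prostaglandin E receptor, changing by 2.22 (adjusted p = 0.000170) and *Ptgir*, the prostacyclin receptor, by 1.85 (adjusted p = 1.18e-05) on the log2 scale.

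Arachidonate release was mixed. Of 9 phospholipase genes 1 was an upregulated and 3 were downregulated DEGs, and *Pla2g6* and *Pla2g12a* were lower by less than the fold threshold (log2 fold changes -0.25 and -0.29, adjusted p = 0.0158 and 0.0237). The upregulated one was *Pla2g4a*, the cytosolic phospholipase that releases arachidonic acid, from 27.2 ± 1.44 to 104 ± 15.8 CPM (log2 fold change 1.93, adjusted p = 6.53e-06). *Pla2g5*, a secreted phospholipase, fell from 393 ± 9.36 to 87.2 ± 12.8 CPM (-2.17, adjusted p = 1.84e-05). Of 6 other prostanoid synthases 2 were upregulated, *Tbxas1*, which makes thromboxane, by 1.34 (adjusted p = 8.99e-05) and *Akr1b3*, an aldose reductase that can make prostaglandin F, by 0.66 (adjusted p = 0.00103). None was a downregulated DEG, but *Cbr1*, a carbonyl reductase, and *Ptges2*, another prostaglandin E synthase, fell by 0.57 (adjusted p = 0.00105) and by 0.47 (adjusted p = 0.00244), less than the fold threshold.

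Of 9 other lipoxygenase and leukotriene genes 4 were upregulated and 2 downregulated DEGs, and *Lta4h*, the leukotriene A hydrolase, fell by 0.40 (adjusted p = 0.00160), less than the fold threshold. The largest changes were in *Dpep2*, a dipeptidase that trims cysteinyl leukotrienes, at 5.06 (adjusted p = 1.74e-07), and *Mgst2*, which can make leukotriene C outside leukocytes, at 4.80 (adjusted p = 0.000128), from 4 counts or fewer in each Sham library. Of 9 genes of clearance and transport 4 were upregulated and 5 downregulated DEGs. Those with the largest changes were *Cyp4f18*, which inactivates leukotriene B, at 4.96 (adjusted p = 4.69e-07), and *Slco2a1*, the prostaglandin transporter, at 4.39 (adjusted p = 8.59e-05). All changes in this paragraph are on the log2 scale.

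Between the injured groups none of the 44 genes was called in either direction by edgeR, against 1.04% of all genes tested. An unadjusted p under 0.05 was reached by 16 of the 44 and by 24.5% of all genes tested, and DESeq2 called 2 of the 44 lower and none higher. *Ggt5*, a transferase that trims leukotriene C, had an adjusted p of 0.0346 in edgeR and a log2 fold change of -0.46, below the fold threshold. In iLECko over Sham irises 17 of the 44 were upregulated and 10 downregulated, against 19.7% and 15% of all genes tested. The plot of the pathway by role shows both comparisons.

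**Figure D4:**
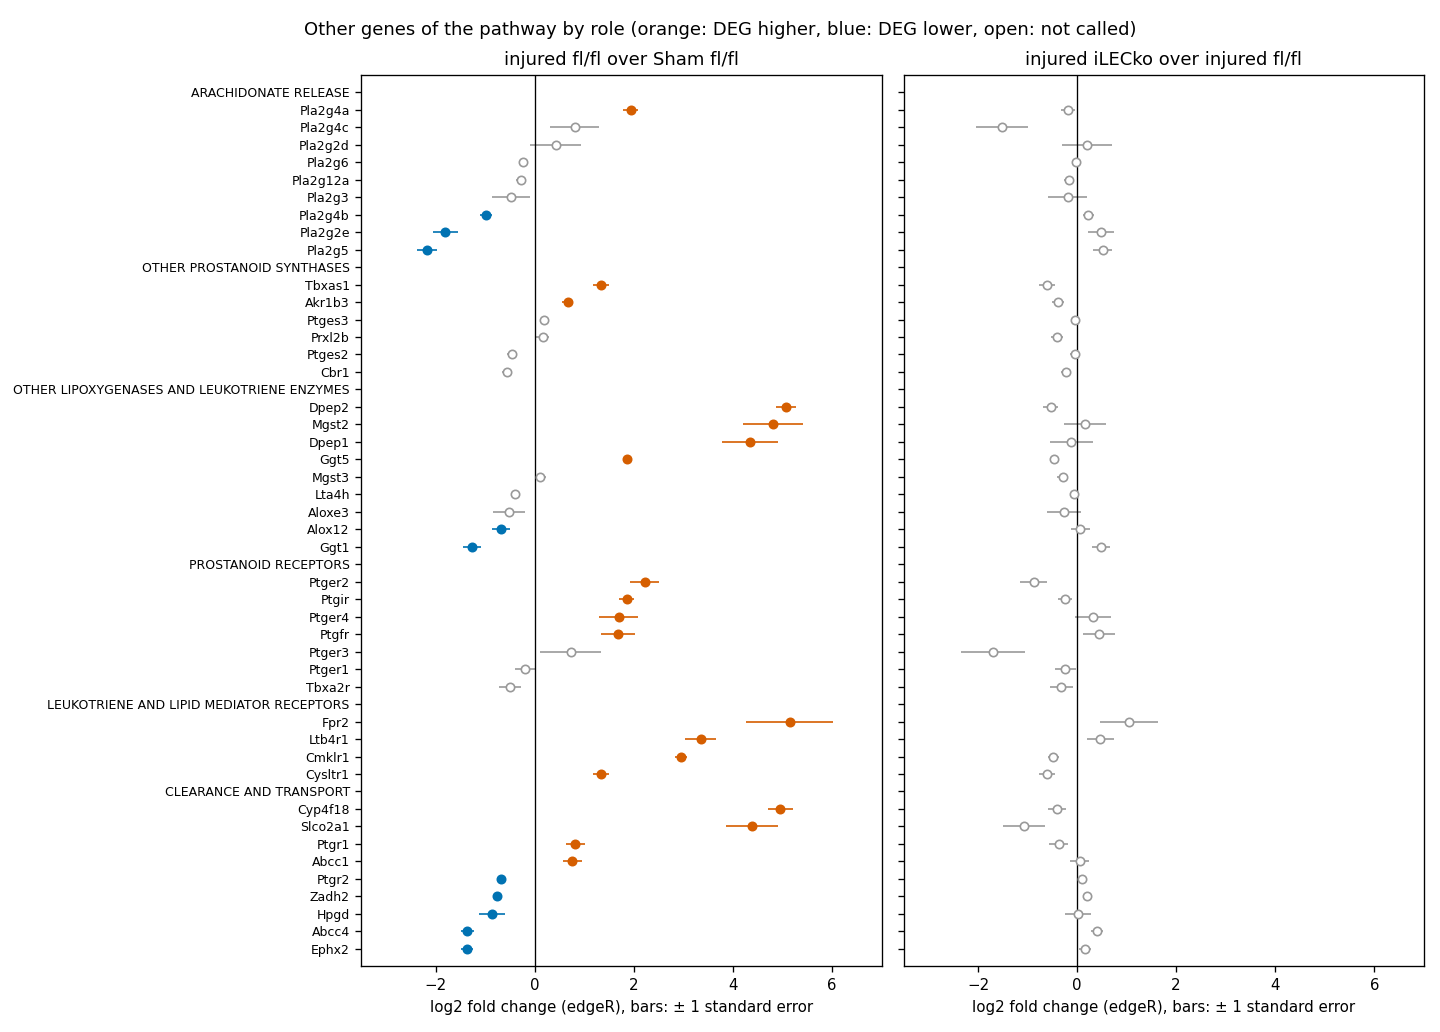
Log2 fold changes from edgeR (horizontal axis) with bars of 1 standard error for the 44 tested pathway genes other than the 10 described above, grouped by role, after injury (left) and in injured iLECko over injured fl/fl irises (right). Filled orange points are upregulated and filled blue points downregulated DEGs, 19 and 10 on the left and none on the right.

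Across the 9 libraries, the likeness of 2 genes was described by Pearson's r of log2 CPM with no test, since the 3 groups dominate it. The gene most like *Ptgs2* among the 10 was *Ptgs1* (r = 0.94), and *Hpgds* was most like *Alox5ap* (r = 0.95), *Ltc4s* most like *Hpgds* (r = 0.94) and *Alox5* most like *Alox5ap* (r = 0.92). *Ptges* and *Ptgis* were most like each other (r = 0.86), both highest in injured fl/fl replicate 1. *Ptgds* had no like gene among the 10, with r between -0.99 (*Alox5ap*) and 0.045 (*Ptgis*), and *Alox15* reached at most 0.43 (*Alox5ap*). Among all genes tested the 3 most like *Ptgs2* were *Rgs2* (r = 0.996), *Vkorc1l1* (0.991) and *Bcl11b* (0.990), and those most like *Ptgds* were *Pmel* (0.997), *Rapsn* (0.995) and *Trim63* (0.994). *Rgs2*, a regulator of G protein signaling, was at 54.0, 70.4 and 116 CPM in injured fl/fl and 109, 143 and 117 CPM in iLECko libraries, so that it too was highest in replicate 3 of the fl/fl group.

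*Pmel*, the gene most like *Ptgds*, makes the fibrils of pigment granules. All 7 pigment cell markers were downregulated DEGs after injury, and their sum fell from 27656 to 29613 CPM in Sham to 3371 to 5810 CPM in injured fl/fl and 5053 to 7113 CPM in iLECko libraries. None was called between the injured groups by edgeR, with 2 at an unadjusted p under 0.05. Smooth muscle markers were lower after injury too (6 of 7 called), at 2034 to 3775 CPM in injured fl/fl and 2752 to 4184 CPM in iLECko libraries. The part of these cells in the fall of *Ptgds* was not tested, and the plot of *Ptgds* against the pigment genes shows both values in each library.

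**Figure D5:**
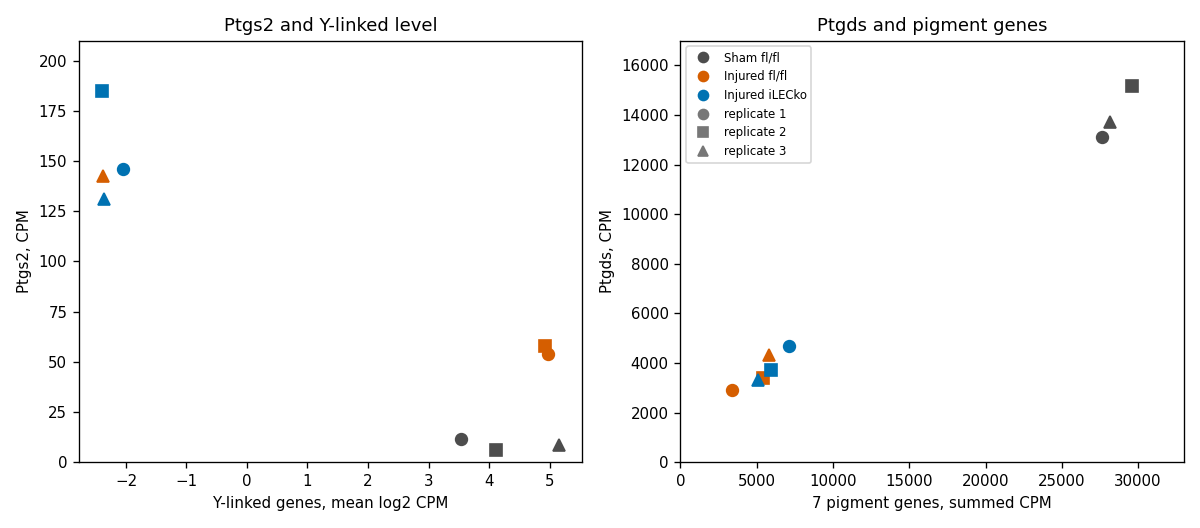
Left, *Ptgs2* in CPM against the mean log2 CPM of 4 Y-linked genes, and right, *Ptgds* in CPM against the summed CPM of 7 pigment cell genes, with 1 point per library, colours for groups and symbols for replicates. On the left injured fl/fl replicate 3 (142 CPM) lies with the iLECko libraries (131 to 185 CPM), and on the right the 3 Sham libraries lie at 13097 to 15156 CPM and the 6 injured ones at 2898 to 4690 CPM.

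Leukocyte markers moved with the genes that rose. All 8 macrophage markers were upregulated after injury, from a sum of 347 to 352 CPM in Sham to 10566 to 19138 CPM in injured fl/fl and 7300 to 9111 CPM in iLECko libraries. Most of the sum in injured libraries was *Lyz2*, at 17618, 9118 and 12446 CPM in injured fl/fl and 7811, 7942 and 6154 CPM in iLECko libraries. *Lyz2* was not called between the injured groups (log2 fold change -0.84, adjusted p = 0.0770). Between these groups 2 of the 8 were called lower (*Adgre1* and *Cx3cr1*) and 1 higher (*Cd14*), and 2 had a log2 fold change above 0. *Csf1r*, the receptor of a macrophage growth factor, was 1.42-fold lower (adjusted p = 0.0263), below the fold threshold. *Adgre1*, which encodes F4/80, had 132, 145 and 144 CPM in injured fl/fl and 97.4, 94.5 and 84.7 CPM in iLECko libraries, a log2 fold change of -0.60 (adjusted p = 0.0278), beside -0.66 for *Hpgds*. Neutrophil markers summed to 4.32 to 5.74 CPM in Sham, 168 to 542 CPM in injured fl/fl and 403 to 1332 CPM in iLECko libraries (5 of 6 tested upregulated after injury, none called between the injured groups by edgeR and 2 at an unadjusted p under 0.05). All 7 T cell markers were upregulated after injury, and their sum was 4.79 to 5.15 CPM in Sham, 39.9 to 58.2 CPM in injured fl/fl and 24.3 to 43.1 CPM in iLECko libraries. Between the injured groups no T cell marker was called by edgeR, 3 had an unadjusted p under 0.05 and 4 of the 7 lay wholly lower in iLECko libraries, with a median log2 fold change of -0.72. The part of these cells in the leukotriene genes and in *Hpgds* was not tested. Several of the neutrophil and T cell markers held few counts in Sham libraries. They passed the filter through the injured libraries, so that only a rise could be seen.

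Mast cells are a known source of *Hpgds* and *Ltc4s*. The 8 mast cell markers listed summed to 34.8 to 42.2 CPM in Sham, 70.8 to 164 CPM in injured fl/fl and 68.6 to 142 CPM in iLECko libraries, of which *Hdc*, a histamine enzyme also known from other leukocytes, was 41.1, 65.2 and 128 CPM. *Cpa3*, a mast cell protease, was at 5.15, 6.38 and 5.80 CPM in Sham, 28.0, 9.02 and 9.99 CPM in injured fl/fl and 9.0, 0.510 and 1.73 CPM in iLECko libraries, so that 2 iLECko libraries lay below Sham. Of 6 mast cell markers tested 1 (*Hdc*) was upregulated after injury, and none was called between the injured groups by edgeR. There 5 had an unadjusted p under 0.05, 3 lay wholly lower in iLECko libraries and the median log2 fold change was -1.89. Among the 5 *Hdc* went the other way, with a log2 fold change of 1.74 from 9.77, 44.3 and 15.8 CPM in injured fl/fl libraries. The others of the 5 were lower in iLECko libraries. Of 8 eosinophil markers, which bear on *Alox15*, 3 were tested and all 3 were upregulated after injury. *Siglecf* (2, 4 and 2 counts) and *Ccr3* (0, 1 and 0) were low in Sham libraries and passed the filter through injured ones, so that only a rise could be seen. The call of *Ccr3* came with overlapping groups, at 0, 102 and 9 counts in injured fl/fl libraries. The defining *Epx* and *Prg2* were at 0.527 CPM or less in every library. The 8 summed to 0.609 to 1.47 CPM in Sham, 6.07, 18.7 and 38.9 CPM in injured fl/fl libraries, with the iLECko libraries between the first and second of these. The sum, *Siglecf* and *Ear2* were thus highest in injured fl/fl replicate 3, the library lowest in *Alox15* of its group, and *Ccr3* was highest in replicate 2 (5.97 CPM), the library highest in *Alox15*. Of 7 fibroblast markers 5 were upregulated after injury, and they summed to 22466, 15533 and 22540 CPM in injured fl/fl and 16435 to 20761 CPM in iLECko libraries. In injured fl/fl replicate 1, the library highest in *Ptgis* and *Ptges*, *Dcn* and *Lum* stood at 4818 and 1929 CPM, against 1899 and 635 CPM or less in the other injured libraries, whereas *Col3a1* was lowest there (3797 CPM, against 5144 to 8309 CPM) and *Col1a1*, *Col1a2* and *Pdgfra* were each higher in another injured library. The parts of mast cells, eosinophils and fibroblasts in these values were not tested.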

How the data were processed

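Estimated counts per gene were deposited by the authors without normalization, from single-end reads of 50 bases. Per the submitters' processing notes HISAT2 2.0.4, Bowtie2 2.2.5, DESeq2 1.4.5 and mm10 were used, while the annotation, the counting program and its use of strand are not given in the sources used here. Because 9.83% to 10.3% of a library's values were not whole, each value was rounded with R 4.3.3. Genes were kept by filterByExpr of edgeR 4.0.16 (15010 of 18349), libraries scaled by TMM (factors 0.900 to 1.09), and all 9 libraries fitted by group. The quasi-likelihood test was adjusted by Benjamini-Hochberg over all genes. Alternatives were RLE factors, library size alone, no filter, DESeq2 1.42.0, 6 libraries, no fold threshold, a replicate block, a covariate for Y-linked genes and each library left out. Transcript lengths and positions came from GENCODE on GRCm38. On simulated data for injured over Sham, with 15010 genes of which 200 changed 3-fold, the procedure recovered 170 (85%), with 11 false calls. The genes and lists were chosen with earlier results of these data known. The rule for named genes took all 10 members, the 2 called pathway genes with the largest change per role (mean of at least 1 CPM) and the most correlated genes. *Adgre1*, *Cpa3*, *Ccr3*, *Epx*, *Prg2*, *Dcn*, *Lum*, *Hdc*, *Cx3cr1* and *Cd14* were named because they moved with a result. *Ptgdr*, *Ptger3*, *Csf1r*, *Lyz2*, *Siglecf*, *Ear2*, the other fibroblast markers and the pathway genes that missed only the fold threshold were named after their values were seen. The combined table deposited for the series held the same values and was not used here.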

Additional observations from a re-analysis of the deposited data

How the results depend on the processing

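Of 510 values under other settings, 474 kept direction and side of the threshold. The setting without a fold threshold uses the main fit, so that direction could not change there. After injury 6 or 7 of the 10 genes were upregulated and *Ptgds* downregulated in every alternative. Between the injured groups the 1 gene called lower became 2 with DESeq2 (*Hpgds* and *Ptgis*). It became 0 in the fit of 6 libraries or with the Y-linked covariate. With each library left out, genes called lower ranged from 0 to 2 and genes called higher from 0 to 1 (*Ptgs2*, without injured fl/fl replicate 3). In iLECko over Sham irises the genes called lower became 2 with 6 libraries and ranged from 1 to 2 with each library left out. Of the other pathway genes, those lower between the injured groups became 2 with DESeq2 and 1 without the fold threshold, and those lower in iLECko over Sham irises 16 without it. The cause was not tested beyond what these settings change. Over all genes, the 86 called higher and 70 called lower between the injured groups became 344 and 282 with DESeq2, 71 and 41 with library size alone, 11 and 13 with the replicate block, 0 and 2 with the Y-linked covariate and 0 and 0 in the fit of 6 libraries.

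Signs that turned were all of changes that had not passed the test. With each library left out, the log2 fold change after injury ranged from -0.10 to 0.47 for *Ptges*, from -0.21 to 1.93 for *Ptgis* and from -0.039 to 2.01 for *Alox15*. Between the injured groups it ranged from -0.30 to 0.16 for *Ptgs1*, from -0.49 to 0.080 for *Ptges*, from -0.0057 to 0.31 for *Ptgds*, from -0.41 to 0.24 for *Alox5* and from -1.28 to 0.77 for *Alox15*, and in iLECko over Sham irises from -0.11 to 0.043 for *Ptges*. The Y-linked covariate turned *Ptgds* to -0.11 and *Alox15* to 1.57 between the injured groups, and *Ptges* to 0.30 and *Ptgis* to 0.041 in iLECko over Sham irises.

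Little sign of pairing by replicate number was seen, though 9 pairs of libraries are too few to decide it. Of 9 pairs with the same number 1 deviated together with r over 0.1, and 2 of 9 libraries were most like one of their own number. With the number as a block the gene called lower between the injured groups became 0 and *Alox5* turned to 0.028, while 6 upregulated and 1 downregulated genes remained in number after injury.

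With 3 libraries a group, changes such as that of *Alox15*, at 26 counts in its lowest library, carry wide errors.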

Other observations

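*Ptgdr*, a receptor of prostaglandin D, was too low to be tested and was named after its values were seen. It had 178 counts (10.8 CPM) in injured *VEGFR3* fl/fl replicate 1 and 0 to 3 counts in each of the other 8 libraries. The same library had the highest *Ptgis* (74.3 CPM), *Ptges* (46.8 CPM) and *Ptger3*, a prostaglandin E receptor, at 20.5 CPM against 1.53 to 7.40 CPM in the others. It also held the highest *Slco2a1*, the prostaglandin transporter, at 112 CPM against 25.2 to 41.5 CPM in the other injured libraries.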
